A study of Mus musculus with 23 samples.

Results

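The genes described here belong to smooth muscle contraction and to the pericytes that wrap small vessels, 35 genes of the 22180 measured. They form a list of names, drawn up with earlier results of these data known: 25 contractile genes that are targets of the serum response factor (SRF), 8 genes of pericyte identity, and the regulators Myocd and Srf. All 35 were measured. Rgs5 and Smtn have 2 transcript clusters each, of which the brighter on average was used, and the others 1. Expression was read on 23 Affymetrix Mouse Gene 2.0 ST arrays. The p75+ Schwann cells (SCs) and the macrophages, which carry CD11b and the antigen encoded by Adgre1, were sorted by flow cytometry, from nerves of Nf1fl/fl mice at 1 month of age (wild type), from nerves of Nf1fl/fl;DhhCre mice at the same age, before tumours have formed (mutant), and from neurofibromas of Nf1fl/fl;DhhCre mice at 7 months. Nerve at 1 month stands here for sciatic nerve and brachial plexus together with nerve roots and dorsal root ganglia. The SCs gave 3, 3 and 3 arrays and the macrophages 3, 5 and 4. A universal control RNA gave 2 more. Arrays at 1 month are named here by the numbers in their labels, and those of neurofibroma by letters in the order of their label numbers, a to c for SCs and a to d for macrophages. SC arrays a and b carry the same label numbers as macrophage arrays c and d. The floxed Nf1 alleles are carried by all groups, the controls included. DhhCre acts in the SC lineage and not in every cell, so that p75+ cells of these mice include both wild-type and Nf1-/- SCs, whereas the macrophages keep Nf1. Tissue of several mice was pooled for a sort at 1 month. The array labels give a mixed C57BL/6 and BALB/c strain and the methods C57Bl/6 alone.

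Smooth muscle cells and pericytes, together called mural cells, surround blood vessels. Their contraction rests on actin filaments that carry tropomyosin, calponin, caldesmon and transgelin, and on a smooth muscle myosin that is switched on when its light chain is phosphorylated. SRF binds the CArG box, a DNA element with an A/T-rich core between CC and GG, in many of these genes, and myocardin is its partner in smooth muscle. Pericytes share much of this apparatus and are further known by Rgs5, Cspg4 (NG2), Mcam (CD146), the potassium channel subunits Kcnj8 and Abcc9, and Notch3 with its target Heyl. Nerves hold such cells around the vessels of the endoneurium, and SCs are not counted among them.

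The promoters of 4 contractile genes are shown for their CArG boxes, since Myl9, Cnn2 and Acta2 were among the genes called lower in SCs of neurofibroma after ComBat and Vcl was not. Each is the RefSeq window of 250 bases before to 50 bases after a listed start (GRCm38.p6, which is mm10), read 5′ to 3′ on the strand of the gene. A listed start is not always the outer end of the gene. The gene records of Myl9, Acta2, Vcl and Srf begin further upstream, that of Acta2 at 34255585. Capitals mark a CArG box, either with a core of 6 A or T or with 1 G or C in that core. The windows are chr2:156775214-156775513 on the plus strand for Myl9, chr10:79988350-79988649 on the plus strand for Cnn2, chr19:34255324-34255623 on the minus strand for Acta2 and chr14:20929148-20929447 on the plus strand for Vcl.
Myl9: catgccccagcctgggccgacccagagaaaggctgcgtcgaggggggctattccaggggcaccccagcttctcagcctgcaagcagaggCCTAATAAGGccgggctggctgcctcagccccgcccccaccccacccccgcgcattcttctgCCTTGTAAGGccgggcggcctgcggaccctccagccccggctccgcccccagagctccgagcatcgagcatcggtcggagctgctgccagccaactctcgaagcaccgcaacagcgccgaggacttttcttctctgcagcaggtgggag
Cnn2: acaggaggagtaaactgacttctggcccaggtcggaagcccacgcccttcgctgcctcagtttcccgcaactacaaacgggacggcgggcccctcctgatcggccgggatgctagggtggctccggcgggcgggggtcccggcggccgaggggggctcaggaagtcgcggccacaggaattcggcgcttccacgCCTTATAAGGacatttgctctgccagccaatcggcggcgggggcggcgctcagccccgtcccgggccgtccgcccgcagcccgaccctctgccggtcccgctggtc
Acta2: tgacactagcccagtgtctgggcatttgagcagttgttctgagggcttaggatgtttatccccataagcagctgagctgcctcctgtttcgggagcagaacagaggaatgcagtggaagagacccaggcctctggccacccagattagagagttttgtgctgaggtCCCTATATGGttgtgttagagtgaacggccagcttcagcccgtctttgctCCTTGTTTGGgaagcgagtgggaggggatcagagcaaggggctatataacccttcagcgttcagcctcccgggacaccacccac
Vcl: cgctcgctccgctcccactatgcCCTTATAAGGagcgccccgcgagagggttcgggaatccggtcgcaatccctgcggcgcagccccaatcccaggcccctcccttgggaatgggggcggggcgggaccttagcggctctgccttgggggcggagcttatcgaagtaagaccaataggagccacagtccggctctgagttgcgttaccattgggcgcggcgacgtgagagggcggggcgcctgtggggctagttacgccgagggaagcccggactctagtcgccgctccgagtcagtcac
The box of Cnn2, CCTTATAAGG, starts 56 bases before the listed start, and the same 10 bases start 227 bases before that of Vcl. Myl9 has CCTAATAAGG at 161 and the imperfect CCTTGTAAGG at 99 bases before its listed start. Acta2, the gene of smooth muscle α-actin, has the imperfect boxes CCCTATATGG at 84 and CCTTGTTTGG at 34 bases before its listed start. Srf itself has CCATATAAGG at 82 and CCATAAAAGG at 62 bases before its listed start. Of the 29 members with a window in the table, 4 (13.8%) held an exact box on either strand, the box being searched in a form that reads alike on both, and 7 (24.1%) held a box with at most 1 G or C in the core. Over all 27025 genes in the table the shares were 1.81% and 11.3%. Most members were listed as targets of SRF, which binds this box, and Srf itself is among those with an exact box. The shares therefore cannot test whether the box is enriched in these genes. The windows are short, so that no box in them, as for Cnn1 and Rgs5, says only that these bases are not there. Tagln, Myh11, Actg2, Heyl, Higd1b and Myocd had no window in the table.

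The deposited log2 values lie on 2 levels that follow the age of the mice, with array medians of 3.74 to 3.88 at 1 month and 2.92 to 3.04 at 7 months, and 1 universal control on either level. The universal control pair, with a median difference of -0.63 and r = 0.967 across genes, is the only bridge between them. Values at 1 month and 7 months are therefore not to be read against each other directly. Comparisons across ages were made in limma with a term for the array set, which carries the error of this pair, and after ComBat, the batch correction named in the methods, which leaves that error out. Differences between SCs and macrophages of 1 age, and the difference of such differences, do not depend on the pair. Calls required a Benjamini-Hochberg adjusted p below 0.05, taken over all 22180 genes, and a change of more than 2-fold. Most marker genes went with the sort. Of 12 SC genes measured, 9 were called higher and 1 lower in SCs than in macrophages in each of the 3 states. Of 15 macrophage markers 13 were called lower in each. Ngfr, the gene of the sorting marker p75, differed little. It averaged 4.98 in SCs and 4.27 in macrophages of wild-type nerve, and 5.29 and 4.35 in mutant nerve, less than 2-fold in both. In neurofibroma it averaged 4.43 and 3.37. The SC arrays were not free of other cells. Pecam1 and Cdh5, which define endothelium, averaged 8.39 and 9.91 in SCs of neurofibroma against 5.79 and 3.51 in macrophages, and Dcn of fibroblasts 11.25 against 7.29. Acta1, Ckm and Myod1 of skeletal muscle stayed between 3.30 and 5.30 on every SC array, whereas Acta1 and Ckm reached 12.14 and 9.42 on average in the universal control.

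At 1 month the contractile and pericyte genes were far higher in SCs than in macrophages. In mutant nerve 26 of the 35 members were called higher in SCs, where 7.22% of all genes were, and in wild-type nerve 20, where 8.87% of all genes were. The members' median log2 difference was 1.53 in mutant nerve and 1.41 in wild-type nerve, beside -0.002 and -0.058 over all genes. In neurofibroma 13 members were called higher in SCs, against 6.46% of all genes, and 1, Cnn2, lower, against 5.88%, and the median difference was 0.53. Without regard to any fit, every SC array lay above every macrophage array for 28 members in mutant nerve (14% of all genes), for 26 in wild-type nerve (18.7%) and for 17 in neurofibroma (13.9%). These samples are bulk, and fewer mural cells in a sort cannot be told apart from less RNA of these genes per cell.

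**Figure D1:**
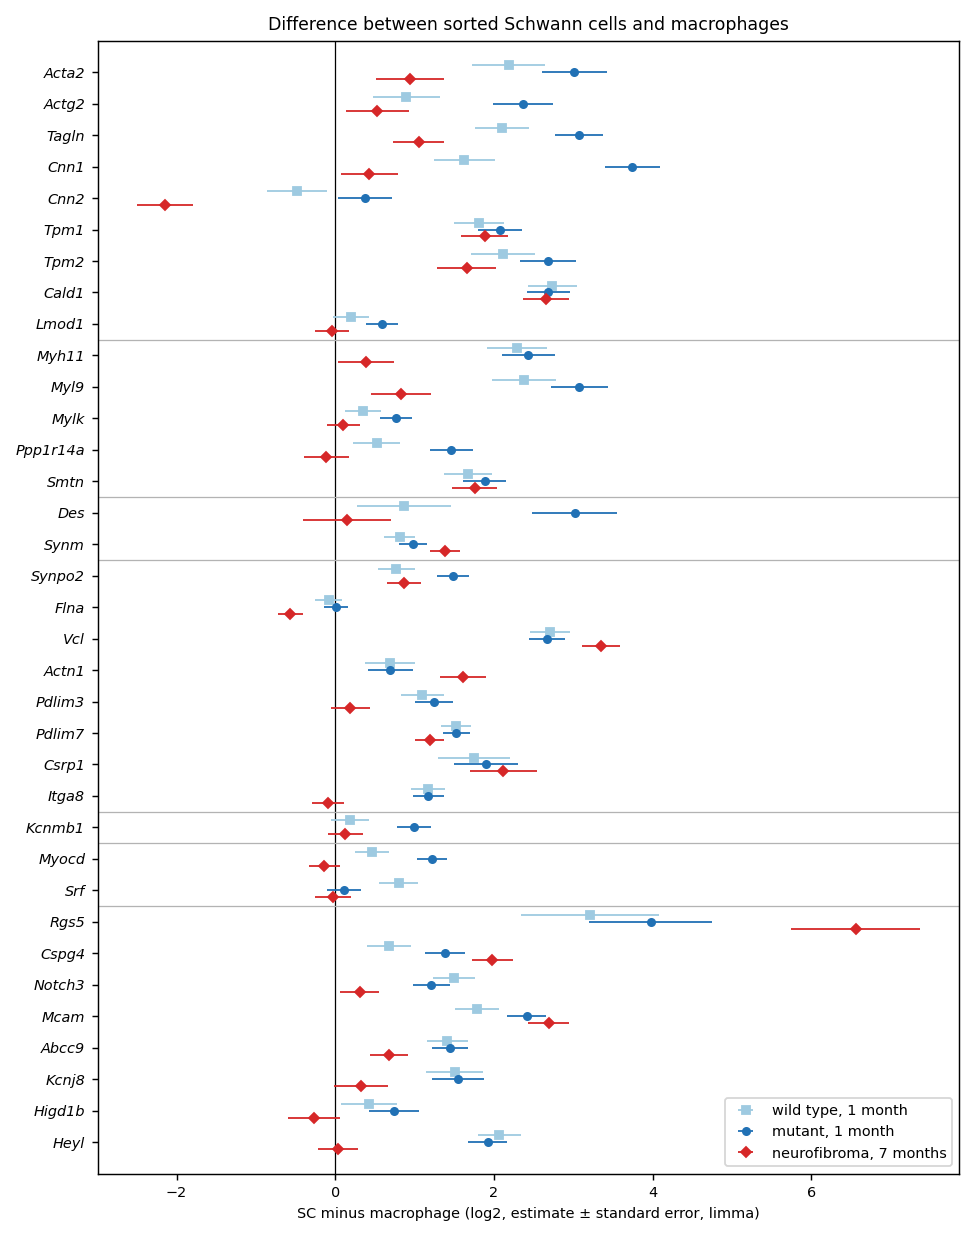
Log2 difference between SCs and macrophages (estimate ± standard error, limma) for the 35 genes, ordered by role, in wild-type nerve, mutant nerve and neurofibroma. Cnn1, Myh11, Des and Heyl lie near 0 in neurofibroma, while Rgs5 (6.56), Vcl (3.35), Mcam (2.69) and Cald1 (2.66) remain far to the right.

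The change from mutant nerve to neurofibroma differed between the cell types for 9 members, all more negative in SCs, where 0.807% of all genes were called in that direction (179 genes). They were Cnn1, Cnn2, Myl9, Myh11, Tagln, Heyl, Ppp1r14a, Myocd and Itga8, and no member was called the other way. Ppp1r14a, Myocd and Itga8 were already low in macrophages of mutant nerve, at 2.90 to 3.42, 3.13 to 3.81 and 3.19 to 3.47. Cnn1 was low on some of these arrays, at 3.18, 3.24 and 3.66, with 4.42 and 5.08 on the others. The array medians at 1 month were 3.74 to 3.88. Whether a fall in macrophages could still be seen at such levels was not tested. The median of the members was -0.86, beside -0.014 over all genes, and 28 of 35 lay below 0. With the batch given in the labels as a further term, 3 were called, Cnn1, Cnn2 and Heyl; among macrophages that batch coincides with mutant nerve. Without SC array a of neurofibroma 5 were called, and without any other array 6 to 11. Against wild-type nerve the same comparison called 3 members, Heyl, Myh11 and Itga8, all more negative in SCs (2.20% of all genes). It uses the same neurofibroma arrays and is no independent repeat.

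Within SCs alone, the fit that carries the error of the universal controls called 1 member lower in neurofibroma than in mutant nerve, Cnn1, where 0.0631% of all genes were called lower (14 genes). After ComBat 15 members were called lower, where 3.11% of all genes were. These were Acta2, Actg2, Tagln, Cnn1, Cnn2, Tpm2, Myh11, Myl9, Ppp1r14a, Des, Pdlim3, Myocd, Abcc9, Kcnj8 and Heyl. The fits hardly differ in the estimates, with a median of -0.95 against -0.96, and differ in the standard errors. Against wild-type nerve the fit with the universal controls called 0 members lower (0.131% of all genes; 11 members and 2190 of all genes had an unadjusted p under 0.05) and ComBat 12 (4.10%). No member was called higher by either fit.

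**Figure D2:**
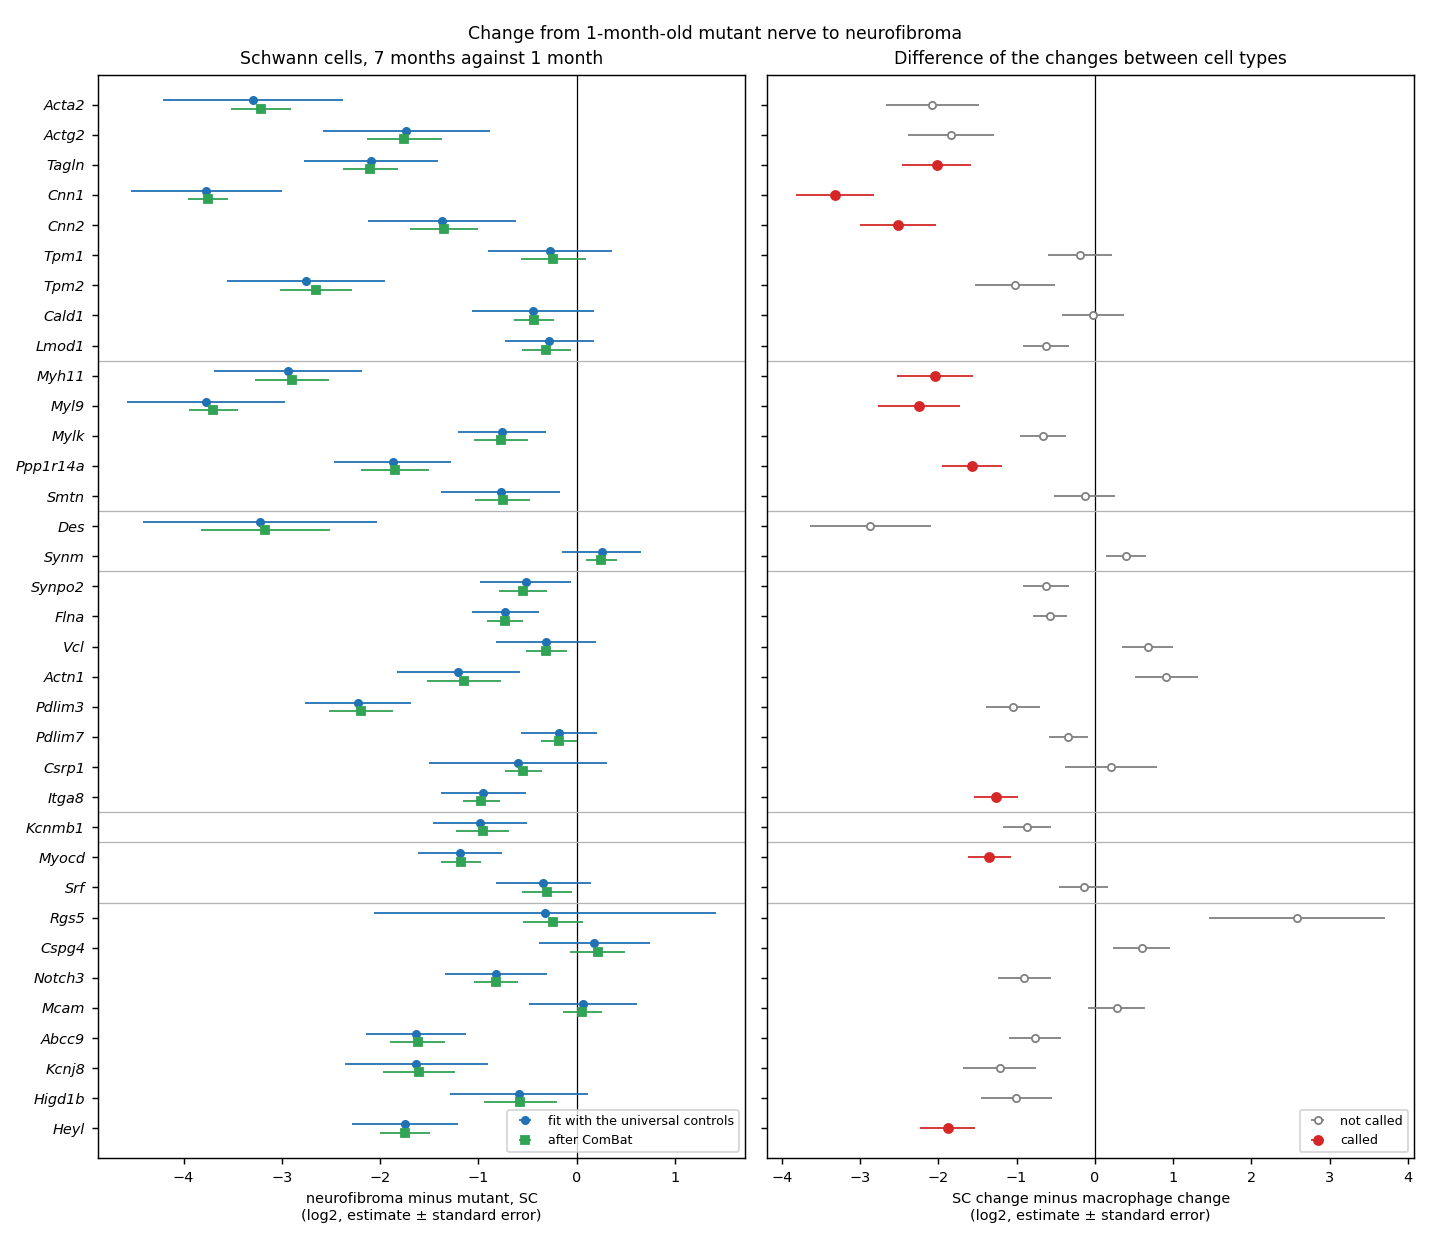
The left panel plots the log2 change in SCs from mutant nerve to neurofibroma (estimate ± standard error) in the fit with the universal controls and after ComBat, the right panel the SC change minus the macrophage change, with the 9 called members in red. Cnn1 stands at -3.77 on the left and -3.32 on the right, and Rgs5, Cspg4, Mcam, Vcl, Actn1, Synm and Csrp1 lie above 0 on the right without a call.

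Among the genes of the thin filament, Cnn1 (calponin 1, an actin-binding brake on smooth muscle myosin) changed the most. It read 7.14, 7.24 and 7.73 in SCs of wild-type nerve, 7.32, 7.81 and 7.85 in mutant nerve, and 2.95, 3.09 and 3.23 in neurofibroma. In macrophages it was 5.02 to 6.30 in wild-type nerve, 3.18 to 5.08 in mutant nerve and 2.42 to 2.95 in neurofibroma. The cell types did not overlap at 1 month, whereas in neurofibroma the lowest SC array met the highest macrophage array. The SC change was -3.77 (SE 0.77, adjusted p = 0.0394), and the SC change minus the macrophage change was -3.32 (SE 0.50, adjusted p = 0.00117). The call of the former was lost without 5 of the 6 SC arrays of the comparison: adjusted p = 0.0744 without mutant array 10, 0.0581 without 9, 0.0593 without neurofibroma array a, 0.0672 without b and 0.0512 without c. The difference between the cell types depended on the nerve compared. Against wild-type nerve it was not called for Cnn1, which changed by -3.48 in SCs and by -2.28 in macrophages. Against mutant nerve the macrophage change was -0.45.

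Acta2 was 8.42, 8.74 and 8.92 in SCs of mutant nerve and 5.19, 5.64 and 6.26 in those of neurofibroma, beside 4.22 to 5.17 in macrophages of neurofibroma. All SC arrays stayed above the macrophages, though barely so in neurofibroma. Its log2 change in SCs was -3.30 (SE 0.92, adjusted p = 0.162) in the fit with the universal controls and -3.22 (SE 0.30, adjusted p = 0.000433) after ComBat. Tagln (transgelin, an actin cross-linker) was 7.70 to 8.11 in SCs of mutant nerve and 3.98, 4.73 and 4.86 in those of neurofibroma, beside 3.09 to 3.77 in macrophages. The change was more negative in SCs than in macrophages by 2.02 (adjusted p = 0.0184), and the SC excess of 1.05 over macrophages in neurofibroma (adjusted p = 0.0205) was the smallest that was called. This last call was lost in 4 of 7 fits that left out 1 array, and the one before in 2 of 15. Against wild-type nerve the difference of the changes was not called for Tagln either. Its change there was -1.87 in SCs and -0.82 in macrophages, beside -2.09 and -0.07 against mutant nerve. Actg2, the γ-actin of visceral muscle, was 6.11 to 7.46 and 2.60 to 3.75 in these SC groups.

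Cnn2, the calponin found outside muscle too, had another pattern. In SCs it was 5.01, 5.84 and 6.77 in mutant nerve and 3.32, 3.70 and 3.95 in neurofibroma, and in macrophages 4.71 to 6.48 and 5.64 to 6.16. It was the sole member called lower in SCs than in macrophages of neurofibroma (log2 difference -2.15, SE 0.35, adjusted p = 7.17e-05). The difference of the changes was -2.52 (SE 0.49, adjusted p = 0.00813). After ComBat it was also the sole member called higher in macrophages of neurofibroma, by 1.17 against mutant nerve and by 1.08 against wild type, where 2.62% and 3.30% of all genes were called higher.

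Both tropomyosins among the members, which lie along the actin filament, were called higher in SCs than in macrophages of neurofibroma. Tpm3 and Tpm4, measured outside the members, averaged 6.31 and 8.29 in these SCs and 6.67 and 8.51 in these macrophages. Tpm1 was 7.47 to 8.43 in SCs of mutant nerve and 6.67, 7.55 and 7.70 in neurofibroma, and exceeded the macrophages of neurofibroma by 1.88 (SE 0.30, adjusted p = 4.24e-05). Tpm2 was 5.82 to 7.05 and 4.13, 4.40 and 5.12, with a change in SCs of -2.75 (adjusted p = 0.184; -2.65 with adjusted p = 0.00207 after ComBat). Tpm2 exceeded the macrophages of neurofibroma by 1.66 (adjusted p = 0.00196). The macrophage estimate had the same sign, at -1.73 (adjusted p = 0.544) and at -1.63 after ComBat (adjusted p = 0.000773). The deposited macrophage means were 3.58 in mutant nerve and 2.89 in neurofibroma. These estimates in both cell types lean on the universal control pair, whose difference was 1.04 for Tpm2, beside a median of -0.63 over all genes. The difference of the changes, which does not use the pair, did not pass the test (-1.02, adjusted p = 0.405). Cald1 (caldesmon) kept its distance from the macrophages at all stages, by 2.73 in wild-type nerve, 2.69 in mutant nerve and 2.66 in neurofibroma, each called. Lmod1 (leiomodin, which seeds actin filaments) was 4.21 to 4.68 in SCs of mutant nerve and was called in no comparison.

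Of the myosin genes, Myl9, the regulatory light chain, was 8.74, 8.76 and 9.10 in SCs of mutant nerve and 5.49, 5.66 and 5.76 in neurofibroma, beside 4.48 to 5.08 in macrophages of neurofibroma. Its change in SCs was -3.77 (SE 0.80, adjusted p = 0.0531) and -3.70 after ComBat (adjusted p = 7.82e-05), and it was more negative than in macrophages by 2.25 (adjusted p = 0.0254), a call lost in 5 of 15 fits that left out 1 array. Myh11, the smooth muscle myosin heavy chain, was 6.20, 7.16 and 7.45 in SCs of mutant nerve and 3.43, 3.60 and 4.04 in neurofibroma. The macrophages of neurofibroma, at 3.08 to 3.58, overlapped with these. Myh11 was among the members whose change differed between cell types against both mutant nerve (-2.05, adjusted p = 0.0295) and wild-type nerve (-1.91, adjusted p = 0.0412). The call was lost in 8 of 15 and 10 of 13 fits that left out 1 array, with estimates of -2.42 to -1.79 and -2.66 to -1.51 over all alternatives. Ppp1r14a, which encodes CPI-17, an inhibitor of myosin phosphatase, was 4.04 to 5.14 in SCs of mutant nerve and 2.14 to 2.58 in neurofibroma, and the changes differed by -1.57 (adjusted p = 0.035), a call lost in 10 of 15 fits that left out 1 array. Mylk, the kinase of the light chain, was at 4.10 to 4.33 and 2.43 to 3.00 and was called in no comparison. Smtn (smoothelin) was 5.25 to 5.45 in SCs of neurofibroma against 2.98 to 3.90 in macrophages, a difference of 1.76 that was called.

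Des (desmin), the intermediate filament of muscle and of many pericytes, varied widely among SC arrays of mutant nerve, at 5.58, 6.38 and 8.88. It was 4.34, 5.65 and 5.74 in wild-type nerve and 2.65, 2.94 and 3.55 in neurofibroma, where it overlapped with the macrophages at 2.78 to 2.95. The difference of the changes was -2.87 (SE 0.77), which did not pass (adjusted p = 0.0596). Synm (synemin), which forms filaments with desmin, was 4.95 to 5.24 in SCs of mutant nerve and 4.43 to 4.83 in neurofibroma, and was called higher in SCs of neurofibroma than in macrophages (1.38, adjusted p = 7.32e-06).

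Of the 8 adhesion and scaffold genes, 6 were called higher in SCs than in macrophages of mutant nerve and 4 in neurofibroma, with medians of 1.36 and 1.03. Vcl (vinculin, which ties actin to adhesions) was 8.66, 8.67 and 8.92 in SCs of mutant nerve and 7.42, 7.60 and 8.03 in neurofibroma, and exceeded macrophages by 2.67 and by 3.35 (SE 0.24, adjusted p = 9.59e-10). Csrp1, a LIM protein of the cytoskeleton, exceeded them by 1.90 and 2.12, both called. Pdlim7, which links actin to kinases, exceeded them by 1.53 in mutant nerve and was called in neurofibroma too (adjusted p = 2.79e-05). Actn1 (α-actinin, an actin cross-linker) was called higher in SCs only in neurofibroma (1.61, adjusted p = 0.000231), where it was 5.54 to 6.89 against 4.22 to 4.72. Whether this excess differed from that of mutant nerve did not pass the test (0.92, adjusted p = 0.314), and Actn1 was lower in macrophages of neurofibroma than in those of mutant nerve by 2.06 after ComBat. Itga8, an integrin of smooth muscle and mesenchyme, went the other way: 4.21, 4.33 and 4.94 in SCs of mutant nerve, 2.27, 2.45 and 2.45 in neurofibroma, and 2.33 to 2.87 in macrophages of neurofibroma. The changes differed by -1.26 against mutant nerve (adjusted p = 0.0196) and by -1.26 against wild type (adjusted p = 0.0194). Pdlim3 was 4.56 to 5.88 in SCs of mutant nerve and 2.51 to 3.33 in neurofibroma, and was called lower after ComBat in SCs (-2.20) and in macrophages (-1.15) alike. Synpo2, an actin-bundling protein, was called only in SCs against macrophages of mutant nerve (1.49), and Flna (filamin A) in no comparison. Kcnmb1, the β-subunit of the calcium-activated potassium channel, was at most 4.43 on every array and was called in no comparison.

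**Figure D3:**
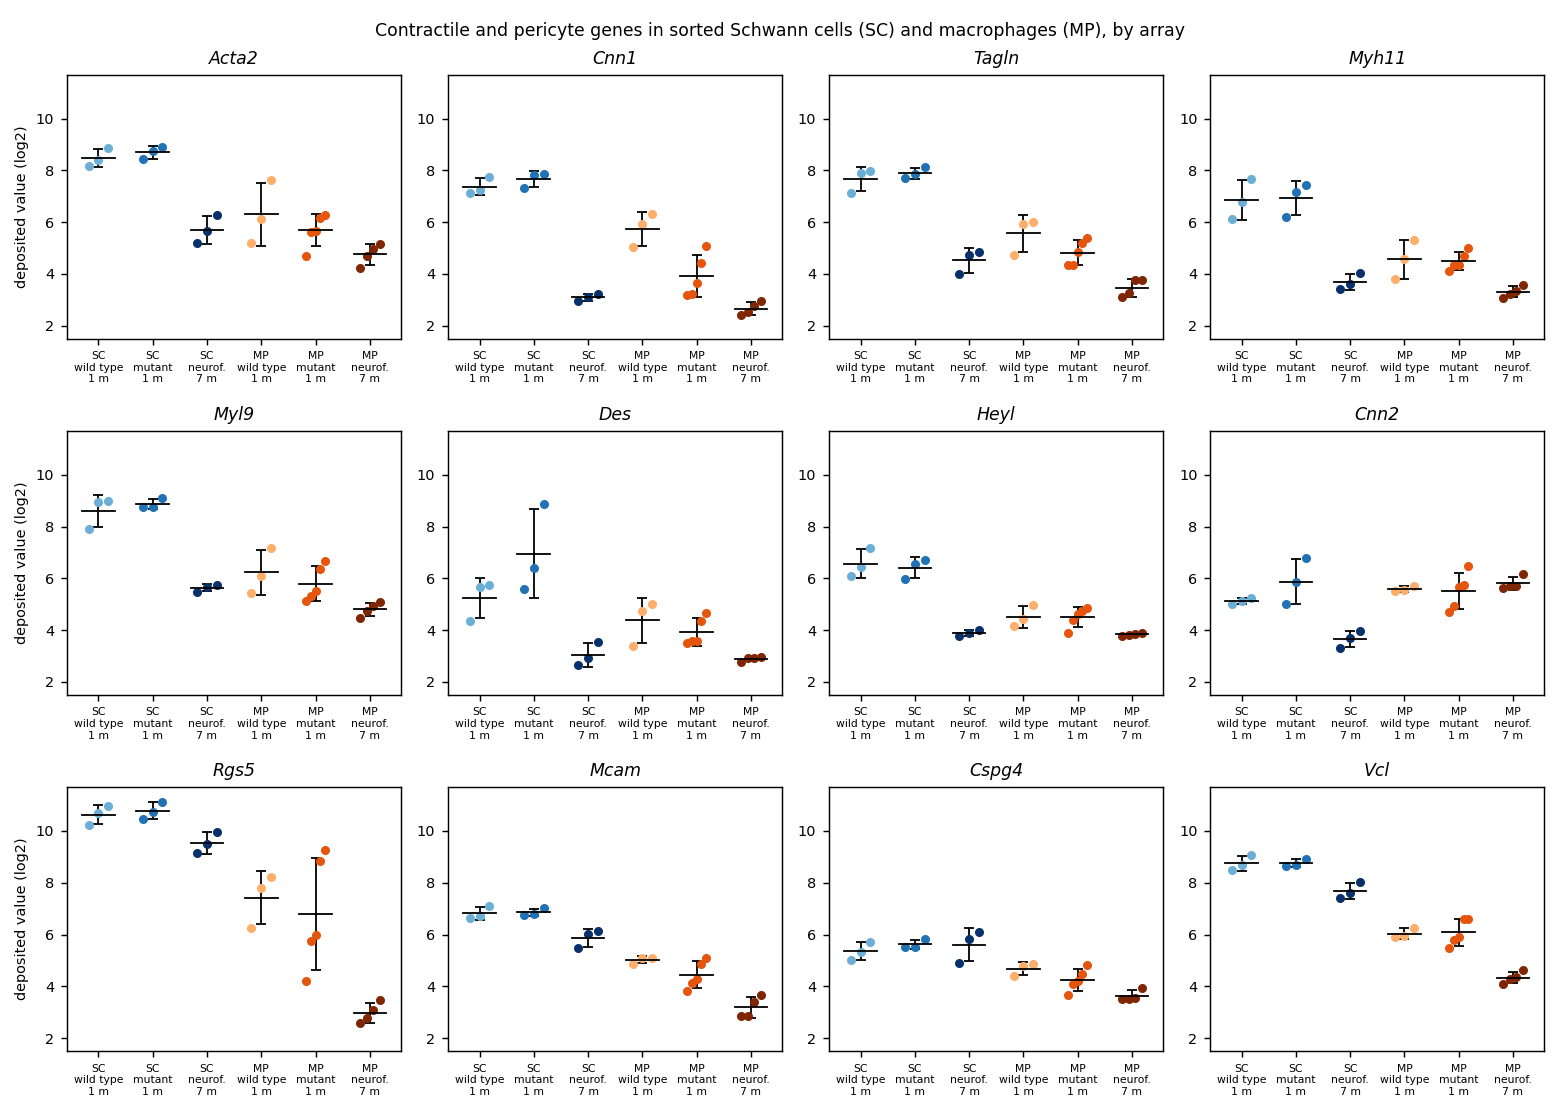
Deposited log2 values by array for 12 genes in SCs and macrophages (MP) of wild-type nerve, mutant nerve and neurofibroma, with the mean (line) and SD (bars); 1-month-old and 7-month-old arrays lie on different levels. Within neurofibroma Cnn1 is 2.95 to 3.23 in SCs and 2.42 to 2.95 in macrophages, whereas Rgs5 is 9.15 to 9.96 in SCs and 2.59 to 3.47 in macrophages.

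Myocd encodes myocardin. It was at 4.37 to 5.0 in SCs of mutant nerve, 3.60, 3.92 and 4.32 in wild-type nerve and 2.89, 3.07 and 3.07 in neurofibroma. Macrophages gave 3.13 to 3.81 in mutant nerve, below all SC arrays, and 3.07 to 3.28 in neurofibroma, where the cell types overlapped. The SC excess was called in mutant nerve (1.21, SE 0.19, adjusted p = 4.42e-05), and the changes differed by -1.35 (SE 0.28, adjusted p = 0.0115; adjusted p = 0.0922 with the label batch as a term). Srf showed no such difference: it was 5.82, 5.84 and 6.37 in SCs of mutant nerve, 5.21, 5.73 and 6.05 in neurofibroma, and 5.50 to 5.90 in macrophages of neurofibroma, and was called in no comparison.

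Of the 8 pericyte genes, 3 were called higher in SCs than in macrophages of neurofibroma: Rgs5, Mcam and Cspg4. A change of the SC excess from mutant nerve was called for Heyl alone, so that the other genes without a call cannot be said to have lost it. Abcc9, for one, was 3.13 to 3.97 in SCs of neurofibroma, above all macrophages at 2.72 to 3.12. Rgs5, a regulator of G-protein signalling, was 10.46, 10.75 and 11.13 in SCs of mutant nerve, 10.23 to 10.96 in wild-type nerve and 9.15, 9.49 and 9.96 in neurofibroma. In macrophages it was 2.59, 2.77, 3.07 and 3.47 in neurofibroma. The SC excess there, 6.56 on the log2 scale (SE 0.81, adjusted p = 2.19e-06), was the largest of any member, and its change in SCs was -0.32 (SE 1.74, adjusted p = 0.989). The 1-month-old macrophage arrays spread from 4.20 to 9.25. The highest of them, mutant arrays 14 and 15 with 8.85 and 9.25, also had the highest summed endothelial level of the mutant macrophages, 9.35 and 9.31 against 7.62 to 8.11 on the other 3 arrays; the part of endothelial or mural RNA in these values was not tested.

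Mcam, an adhesion molecule of pericytes and endothelium, was 6.76, 6.80 and 7.01 in SCs of mutant nerve and 5.49, 6.01 and 6.15 in neurofibroma, beside 2.86 to 3.66 in macrophages of neurofibroma. The excess in neurofibroma was 2.69 (SE 0.26, adjusted p = 7.13e-08). Cspg4, the NG2 proteoglycan, was 5.51, 5.53 and 5.83 in mutant nerve and 4.91, 5.81 and 6.11 in neurofibroma, and exceeded the macrophages by 1.98 (adjusted p = 5.39e-06). Neither Mcam nor Cspg4 nor Rgs5 was called in SCs between ages by either fit.

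Heyl, a transcriptional repressor downstream of Notch, was 5.97, 6.57 and 6.71 in SCs of mutant nerve, 6.08 to 7.18 in wild-type nerve and 3.76, 3.87 and 3.99 in neurofibroma, which overlapped with 3.79 to 3.88 in macrophages. Its change differed between cell types by -1.88 (SE 0.35, adjusted p = 0.00596) against mutant nerve and by -2.03 (SE 0.37, adjusted p = 0.00347) against wild type. Notch3, the receptor upstream of it, was 5.32 to 5.60 in SCs of mutant nerve and 3.61 to 3.77 in neurofibroma, overlapping with 3.06 to 3.66 in macrophages, and the changes differed by -0.90 (adjusted p = 0.209). Kcnj8 and Abcc9, which form an ATP-sensitive potassium channel of pericytes, fell in SCs after ComBat by 1.60 (adjusted p = 0.0166) and 1.62 (adjusted p = 0.00568), and had adjusted p = 0.523 and 0.237 in the fit with the universal controls. Higd1b was at most 4.67 on every array and was called in no comparison. In all, 7 of 8 pericyte genes were called higher in SCs than in macrophages of mutant nerve, 6 in wild-type nerve and 3 in neurofibroma. Of the 25 contractile genes the counts were 18, 14 and 10, with 1 called lower in neurofibroma. As a median over the list, the SC change from mutant nerve was -0.98 for the contractile and -0.70 for the pericyte genes.

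No member was called for genotype at 1 month or for age in macrophages in the fit with the universal controls, though the signs were uneven. Between mutant and wild-type SCs 29 of 35 members lay above 0 (median 0.16, beside -0.015 over all genes). In label batch 2 alone this median was -0.12, beside -0.012 over all genes. The members' summed level was 12.13 on wild-type SC array 1, which lies outside that batch, and 12.55 and 12.72 on arrays 2 and 3. Signs of genes read on the same few arrays are not independent counts. Between mutant and wild-type macrophages 26 lay below 0 (-0.13 beside -0.016). Between macrophages of neurofibroma and those of mutant or wild-type nerve 25 lay below 0 in each (-0.21 beside -0.041 and -0.44 beside -0.063). Between mutant and wild-type SCs 0 members were called (0.00451% of all genes), with Des at 1.70 (adjusted p = 0.477) the largest difference, and 4 members had an unadjusted p under 0.05, as had 1920 of all genes. Between mutant and wild-type macrophages 0 were called, and of all genes 0%, with Cnn1 at -1.83 (SE 0.34, adjusted p = 0.0923) the largest, and 6 members had an unadjusted p under 0.05, as had 2741 of all genes. ComBat called 0 in either. Wild-type macrophage arrays 5 and 6, the highest for Cnn1 at 6.30 and 5.91, also carried genes of the seminal vesicle, with a summed level of 10.80 and 12.91 against 5.01 to 5.29 on the mutant macrophage arrays; the same genes were raised on SC arrays 2 and 3 of wild-type nerve (12.47 and 9.04) and SC array c of neurofibroma (8.66), and their part in the members' values was not tested. Between neurofibroma and mutant nerve 0 members were called lower in macrophages (0.0496% of all genes), and between neurofibroma and wild-type nerve 0 (0.0451%), with 3 and 5 members at an unadjusted p under 0.05, beside 1856 and 2196 of all genes. ComBat called 6 lower (2.34% of all genes) and 8 lower (2.93%). Acta2, Tpm2, Myl9, Actn1, Pdlim3 and Rgs5 were lower against mutant nerve, and Actg2 and Cnn1 in addition against wild type. The universal control pair differed by 0.30 for Acta2, 1.04 for Tpm2, 0.54 for Myl9 and 0.20 for Actn1. For Pdlim3 and Rgs5 it differed by -0.23 and -0.92, beside a median of -0.63 over all genes. How far these calls rest on the pair was not tested.

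Other genes of the same processes were counted from lists chosen by function. Of 47 further smooth muscle genes, 18 were called higher and 2 lower in SCs than in macrophages of mutant nerve, and 10 and 6 in neurofibroma. Gucy1a1 and Gucy1b1, the subunits of the nitric oxide receptor guanylate cyclase, were the 2 whose change from mutant nerve differed, by -2.67 (adjusted p = 0.0292) and -1.66 (adjusted p = 0.0354). Against wild-type nerve 2 were called lower, Gucy1a1 among them, and 2 higher, Pdlim1 (2.11) and Itga1 (1.66). Gucy1a1 averaged 7.87 in SCs of mutant nerve and 3.31 in neurofibroma. Of 26 further mural cell genes 14 were called higher and 2 lower in SCs of mutant nerve, and 11 and 2 in neurofibroma, with 0 called for the difference of changes against mutant nerve and 1, the Notch target Hey2 (-2.41), against wild type. Pdgfrb, the PDGF receptor that defines pericytes and is also present in fibroblasts, was 6.34 to 8.19 in SCs of mutant nerve and 3.62 to 5.29 in neurofibroma, a change of -2.67 (adjusted p = 0.276; -2.62 with adjusted p = 0.00731 after ComBat). Vtn (vitronectin), another mural gene, was 6.49 to 7.05 in neurofibroma and exceeded the macrophages by 3.50 (adjusted p = 4.04e-07).

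Of 11 ternary complex factors and immediate early targets of SRF, Egr2, which also regulates myelination, alone had a change from mutant nerve that differed between SCs and macrophages, by 1.67 (adjusted p = 0.018). Against wild-type nerve Egr2 (1.58) and Fos (-1.72) were called. Of 8 YAP and TAZ targets, 5 were called higher in SCs of mutant nerve and 5 in neurofibroma, and 0 changes differed between cell types.

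Levels of markers of other cells are given beside these results, on the same 2 array levels. The summed level of 14 endothelial genes (log2 of summed signals) was 9.80 to 11.28 in SCs of mutant nerve and 10.47 to 11.97 in neurofibroma, on different array levels. In the fit with the universal controls their median change in SCs was 0.94, with 13 of 14 above 0, and the SC change minus the macrophage change had a median of 1.00, with 14 of 14 above 0, opposite in sign to the members. Of the 14, 8 were called higher in SCs than in macrophages of mutant nerve and 14 in neurofibroma, with 0 called for the change in SCs (1 higher after ComBat) and 0 for the difference of the changes. The 26 mural genes had a summed level of 11.19 to 11.30 and 9.44 to 9.78 in these groups, the 15 fibroblast genes 13.32 to 13.55 and 12.49 to 12.62, and the 9 neuron genes 8.30 to 9.71 and 6.82 to 7.58. In macrophages the 12 SC genes summed to 10.07 to 11.09 in mutant nerve and 8.51 to 8.67 in neurofibroma, and the fibroblast genes to 9.17 to 12.19 and 8.29 to 8.66. The sum of the SC genes is no measure of SC RNA alone, since it holds Gas2l3, which was higher in macrophages. Gas2l3 averaged 8.87 in macrophages and 7.40 in SCs of mutant nerve, and 7.91 and 6.86 in neurofibroma. The part that mural cells, endothelium, fibroblasts or SC RNA in the macrophage arrays had in the members' values was not tested. Skeletal muscle genes, at a summed level of 7.02 to 7.89 in all SC arrays of mutant nerve and neurofibroma against 13.50 and 14.10 in the universal controls, had 0 calls in the fit with the universal controls and after ComBat 1 gene called lower in macrophages of neurofibroma against either nerve.

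**Figure D4:**
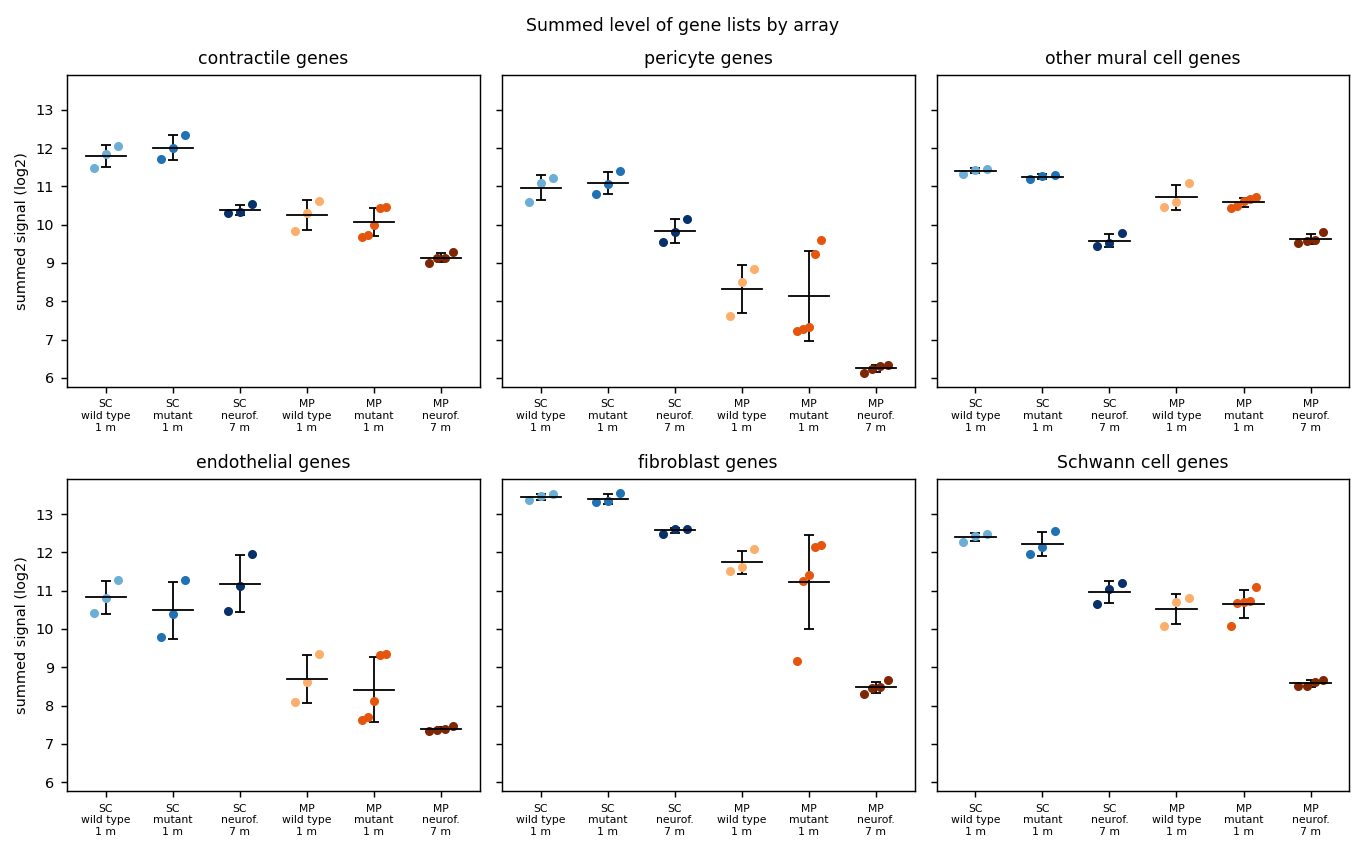
Summed signal (log2) by array of the contractile and pericyte genes and of other mural, endothelial, fibroblast and SC marker lists, with the mean (line) and SD (bars) of each group of SCs and macrophages (MP). In neurofibroma the sums of the mural genes are alike in SCs (9.44 to 9.78) and macrophages (9.53 to 9.81), though 11 of the 26 genes were called higher in SCs and 2, Jag1 and Anpep, lower. The endothelial genes of SCs (10.47 to 11.97) lie far above them (7.33 to 7.48).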

How the data were processed

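Probe sets were summarized by the authors with RMA in Affymetrix Expression Console (version 1.3.1.187, mm10), and the deposited log2 values entered unchanged. Of 41345 transcript clusters, 23521 name 1 gene through the platform table and GRCm38.p6 (23328 matched by Entrez identifier), 1820 several and 16004 none. The array set was taken from the array medians, as the batch in the labels does not follow them. limma (version 3.58.1, R 4.3.3) was fitted to all 23 arrays with group and array set as terms (15 residual and 19.8 total degrees of freedom) and Benjamini-Hochberg adjustment over 22180 genes. ComBat, with the array set as batch, was written out in R and followed by limma. The steps were tested on simulated data. Precision is limited by the few arrays, and p-values measure the spread between arrays, which may be in part technical.

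Members and gene lists were chosen with earlier results of these data known. Values by array are given for members called in a comparison that involves neurofibroma, at most 16 by size, and for the pericyte genes with the highest SC mean. Of other lists at most 3 called genes per comparison are named, and the defining markers Pecam1, Cdh5, Pdgfrb, Dcn, Acta1, Ckm and Myod1; Vtn was added after its values were seen. The result of 1 further list is not reported here. The label numbers shared by both cell types of neurofibroma, whose sources do not say that they mark the same mice, were tried as a block. CArG boxes were searched in RefSeq promoter windows with Python (version 3.11.15) and plots drawn with matplotlib (version 3.10.9). Alternatives were ComBat, centring, quantile normalization, fits by cell type, the label batch as a term or its second level alone, a filter on low values, array weights and each array left out.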

Additional observations from a re-analysis of the deposited data

Results flagged for a closer look

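The change from mutant nerve to neurofibroma differed between SCs and macrophages, by limma's test of the difference itself, for Cnn1 (-3.32), Cnn2 (-2.52), Myl9 (-2.25), Myh11 (-2.05), Tagln (-2.02), Heyl (-1.88), Ppp1r14a (-1.57), Myocd (-1.35) and Itga8 (-1.26). Against wild-type nerve it differed for Heyl (-2.03), Myh11 (-1.91) and Itga8 (-1.26). All are log2 values, negative where the SC change was the lower.

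Of 70 groups of 4 or 5 macrophage arrays, 1 array stood apart by Dixon's test in 8, where chance gives about 1 in 20. In mutant nerve these were Actg2 on array 14 (5.73, the nearest being 4.31) and Synm on array 13 (3.49). In neurofibroma they were Cnn2 (6.16), Kcnj8 (3.45) and Higd1b (2.63) on array c, Smtn (2.98) and Itga8 (2.87) on array d, and Cspg4 (3.94) on array b.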

How the results depend on the processing

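Counts of members called across ages depended on how the array levels were joined. In SCs against mutant nerve, 1 member was called with the universal controls, 15 after ComBat, 14 after centring on array medians and 15 after quantile normalization, 0 with the label batch as a term or a filter on low values, 2 in label batch 2 alone, 4 with array weights, and 0 (without mutant array 9 or 10 or neurofibroma array a or b) to 2 (without mutant array 8) leaving out 1 array. Against wild type the counts were 0, then 12, 13 and 12, 1 in the fit of SCs alone, 2 in label batch 2 alone, 4 with array weights, and 0 to 1 (without wild-type array 1). In macrophages against mutant nerve they were 0, then 7, 3 and 3, and 1 in their own fit, and against wild type 0, then 9, 6 and 7. Mutant against wild-type macrophages gave 0 to 1 (without mutant array 14 or wild-type array 4). The change that differed between cell types had 9 calls against mutant nerve, 3 with the label batch as a term, and 5 (without SC neurofibroma array a) to 11 (without SC mutant array 8), and 3 against wild type, 6 after ComBat and in label batch 2 alone (5 lower and 1 higher in each, the latter after ComBat being Cspg4), and 2 to 5 (without SC wild-type array 1). Centring moved the median of all genes to between 0.16 and 0.22 in the comparisons across ages. Of 27 single-gene calls 17 kept their call under every alternative run for them, and none of 557 values reversed. With the label numbers that both cell types share as a replicate block (consensus correlation 0.098) 14 members were called between cell types of neurofibroma, as without it. Leaving out wild-type macrophage arrays 5 and 6 together, chosen after seeing the data, gave 22 calls against SCs in place of 20, turned the members' median in mutant against wild-type macrophages from -0.13 to 0.12, and moved it from -0.44 to -0.20 in macrophages of neurofibroma against wild type and from -0.48 to -0.80 for the difference of changes, which then had 4 calls. Few arrays and 1 pair of universal controls limit what can be told across ages.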
